A study of Mus musculus with 4 samples.

Results

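The genes described here encode solute carriers and ion channels, the proteins that move ions and small molecules across membranes. They were chosen by gene symbol alone: symbols beginning with Slc (which takes in Slco), Kcn, Cacna, Scn and a digit, Grin, Gria, Grik, Trpc, Trpm, Trpv or Clcn. In the coding variant lists of 4 mouse tumour cell lines these symbols gave 51 variants in 47 genes, of 2013 variants in 1555 genes, with repeated rows of a list dropped. YUMM 1.1 and YUMM 1.3 come from mouse melanomas driven by an activated Braf. UV YUMM 1.1-9 is set against YUMM 1.1 by the heading of its list and carries UV in its name; how it was derived, and whether it is a single clone, is not stated in the labels. MB49 is a carcinogen-derived bladder carcinoma line of male C57BL/6 origin, and its list was matched by elimination to the library labelled 49XC-49, since the other 3 headings match the other 3 labels. Each line was sequenced as 1 exome library, so there is no replicate and no line can be set against another beyond the counting error of its reads and variants. The extraction text speaks of DNA from cell lines and names all of them but YUMM 1.3, while every library is labelled as from mouse tumours. The growth text, the same for every library, describes MB49 cells placed under the skin of tamoxifen-treated mice to study Atg7 deletion in the host; it does not say whether the sequenced DNA came from such tumours. DNA holds no expression values, so the identity of the lines could not be checked against marker genes, and whether these genes are transcribed in the lines was not measured.

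Ion channels open a pore through which ions run down their gradient, and most of those named here open in response to voltage, a ligand, temperature or calcium. Solute carriers bind a substrate and carry it across by changing shape, often coupling it to sodium, protons or another solute. In melanocytes and bladder epithelium such proteins are known for setting membrane potential, pH, volume and the supply of nutrients, but many of the channels below are best known from nerve and muscle.

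YUMM 1.1 listed 7 of these variants, YUMM 1.3 listed 2, UV YUMM 1.1-9 listed 23 and MB49 listed 19. As a share of each list this was 1.64% in YUMM 1.1 (exact 95% interval 0.660 to 3.34), 0.889% in YUMM 1.3 (0.108 to 3.17), 3.52% in UV YUMM 1.1-9 (2.25 to 5.24) and 2.69% in MB49 (1.63 to 4.17). The symbol rule takes in 560 of 21900 protein-coding RefSeq genes, or 2.56%, and this value lay within each of the 4 intervals, although a share of genes and a share of variants are not the same measure. The UV YUMM 1.1-9 list holds variants additional to YUMM 1.1 only, and it goes down to 3 alternative reads where the other lists stop at 5. At a common floor of 5 alternative reads and an allele fraction of 10%, UV YUMM 1.1-9 kept 14 of the 23 variants, which was 3.72% of its 376 variants (2.05 to 6.17). No gene had over 1 of these variants in a list, and no site was shared between lists. Of the whole lists, 74.8% of YUMM 1.1, 53.3% of YUMM 1.3, 89.8% of MB49 and 100% of UV YUMM 1.1-9 variants were in no other list.

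All 10 potassium channel genes with a variant belonged to the voltage-gated families, which make up 40 of the 94 Kcn genes in RefSeq. This split was not planned and the coding length of the families was not measured, so the counts are a description without a test. Of the 10 variants in these genes, 5 changed the protein: 3 in UV YUMM 1.1-9 and 2 in MB49. Each value below is the number of reads with the new base of all reads at the site, with the allele fraction in percent and its exact (Clopper-Pearson) 95% interval, which covers counting error only. SIFT is a prediction from sequence conservation, with scores from 0 to 1 and low scores called deleterious. In UV YUMM 1.1-9, F78L (Ttc to Ctc, chr15:34838724) was in Kcns2, a silent subunit that modifies other channels, with 7 of 36 reads, or 19.4% (8.19 to 36.0), and Q37L (cAg to cTg, chr2:63182253) in Kcnh7, an ERG-type channel, with 5 of 31, or 16.1% (5.45 to 33.7). SIFT scored both of these missense changes 0, deleterious. In MB49 the 2 protein changes were likewise scored 0. Of these, K388T (aAg to aCg, chr19:27323913) in Kcnv2, a silent subunit of photoreceptors, had 17 of 62 reads, or 27.4% (16.9 to 40.2), the lowest allele fraction of these genes in MB49.

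The other 5 potassium channel variants were synonymous. In UV YUMM 1.1-9 they lay in Kcna6, a Shaker-type channel, at codon 305 (ttC to ttT, chr6:126739010) with 6 of 33 reads, in Kcnf1, another silent subunit, at codon 348 (ttC to ttT, chr12:17175175) with 4 of 28, and in Kcnh8, an ELK-type channel, at codon 1055 (gtG to gtC, chr17:52978168) with 8 of 47. In MB49 they lay in Kcna1, a Shaker-type channel of axons, at codon 405 (ccT to ccA, chr6:126642141) with 20 of 60 reads and in Kcnc1, a channel of fast-firing neurons, at codon 278 (ctC to ctT, chr7:46427609) with 25 of 46. Kcna1 and Kcna6 are neighbours, and their changed bases, in different lines, lie 96.9 kb apart.

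Calcium and sodium channel genes carried 9 variants, and all 5 missense changes among them were called deleterious. Cacna1b, the pore of the N-type calcium channel that drives transmitter release, had G1613E (gGa to gAa, chr2:24637510, SIFT score 0) in UV YUMM 1.1-9 with 9 of 58 reads, or 15.5% (7.35 to 27.4). Cacna2d3 encodes an auxiliary subunit that brings calcium channels to the membrane, and its E652K (Gaa to Aaa, chr14:29058606, score 0.03) had 9 of 72 reads, or 12.5%. Scn11a, a sodium channel of pain-sensing neurons, had S772F (tCc to tTc, chr9:119789960, score 0.03) with 7 of 43, or 16.3% (6.81 to 30.7). In MB49, R171K (aGa to aAa, chr1:136070747, score 0.02) in Cacna1s, the calcium channel of skeletal muscle, was at a higher allele fraction, with 20 of 52 reads, or 38.5% (25.3 to 53.0). Synonymous changes were listed for the auxiliary subunit gene Cacna2d1 at codon 477 (6 of 50 reads) and for Scn4a, the sodium channel of skeletal muscle, at codon 582 (4 of 52) in UV YUMM 1.1-9. YUMM 1.1 had synonymous changes in Cacna1b at codon 2059 (aaG to aaA, chr2:24607973) with 9 of 34 reads, or 26.5% (12.9 to 44.4), and in Cacna2d4, an auxiliary subunit known from the retina, at codon 895 (ctC to ctA, chr6:119338120) with 20 of 46. The latter, at 43.5% (28.9 to 58.9), was the highest allele fraction of these genes in YUMM 1.1.

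Trpm7, a ubiquitous channel for magnesium and calcium whose protein ends in a kinase, was the only gene of the rule with a missense change in more than 1 list. I1044T (aTt to aCt, chr2:126821196) was in YUMM 1.1 with 10 of 57 reads, or 17.5% (8.75 to 29.9). F1686S (tTt to tCt, chr2:126797506) was in UV YUMM 1.1-9 with 12 of 96 reads, or 12.5% (6.63 to 20.8), against 0 of 121 in YUMM 1.1. Both were scored 0 by SIFT, and the sites lie 23690 bases apart in the gene (chr2:126791558-126876261, GRCm38). Because the UV YUMM 1.1-9 list leaves out variants of YUMM 1.1, it does not show whether I1044T is also carried there. Of the other TRP channel genes, the cold and menthol receptor Trpm8 had a synonymous change at codon 735 in UV YUMM 1.1-9 (ttC to ttT, 4 of 45 reads), and the osmotic and heat sensor Trpv4 had a synonymous change at codon 380 in MB49 (acA to acC, 15 of 29).

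The glutamate receptor genes, which encode ligand-gated channels of synapses, had 3 missense changes. In UV YUMM 1.1-9 this was Y525H (Tac to Cac, chr7:25023297, score 0.01) in Grik5, a high-affinity kainate receptor subunit, with 6 of 23 reads; its 26.1% (10.2 to 48.4) was the highest allele fraction of these genes in that line. MB49 had L717M (Ttg to Atg, chr16:9644118, score 0) in Grin2a, a glutamate-binding NMDA receptor subunit that is recurrently mutated in human melanoma, with 48 of 99 reads, or 48.5% (38.3 to 58.7). MB49 also had S952T (aGc to aCc, chr9:42520845) in Grik4, the other high-affinity kainate subunit, with 9 of 17; this change was the only channel missense change that SIFT tolerated (score 0.12, low confidence). Clcn1, the chloride channel that steadies the resting potential of skeletal muscle, had F249Y (tTt to tAt, chr6:42292990, score 0) in UV YUMM 1.1-9 with 4 of 58 reads, or 6.90%.

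Among the transporters, 7 genes for carriers of inorganic ions had 8 variants. The change of the start codon M1I (atG to atA, chr6:83240689) in Slc4a5, a sodium bicarbonate cotransporter, was the only start codon loss of the UV YUMM 1.1-9 list and rested on 3 of 22 reads, or 13.6% (2.91 to 34.9). F563Y (tTc to tAc, chr11:102354432) in Slc4a1, the band 3 anion exchanger of red cells, had 4 of 39 reads and was tolerated (score 0.14). Slc26a8, an anion transporter of sperm, had a synonymous change at codon 319 in UV YUMM 1.1-9 (ctT to ctA, chr17:28659655) with 4 of 77 reads, or 5.19% (1.43 to 12.8), the lowest of all 51 variants. The same gene had N453Y (Aac to Tac, chr17:28652450, score 0) in MB49, a change also annotated as lying in a splice region, with 36 of 70 reads, or 51.4% (39.2 to 63.6). MB49 further had S506N (aGc to aAc, chr3:135336478, score 0) in Slc9b2, a sodium/hydrogen exchanger, with 30 of 51 reads, or 58.8% (44.2 to 72.4). The sodium phosphate transporter genes Slc17a1 and Slc17a2, which lie near each other, differed in their SIFT class. M24K (aTg to aAg, chr13:23812584) in Slc17a2 was scored 0 with 14 of 38 reads, and K397E (Aag to Gag, chr13:23887989) in Slc17a1, at 75.4 kb from it, was tolerated (score 0.34) with 42 of 76. Slc12a4, a potassium chloride cotransporter that regulates cell volume, had a synonymous change at codon 432 with 12 of 23 reads.

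Carriers of organic solutes held 2 stop changes. L393* (tTa to tAa, chr1:98466770) in Slco6d1, of the organic anion transporter family, was in UV YUMM 1.1-9 with 6 of 43 reads, or 14.0% (5.30 to 27.9), and a synonymous change at codon 12 of the same gene (gtG to gtA, chr1:98421241) was in MB49 with 11 of 19, or 57.9% (33.5 to 79.7). The stop Y36* (taC to taG, chr4:59914814) in Slc46a2, a carrier of thymic stroma, had the highest allele fraction of all 51 variants, 13 of 19 reads in MB49, or 68.4% (43.4 to 87.4). MB49 also had K124Q (Aag to Cag, chr10:19850653, score 0.02) in Slc35d3, of the nucleotide sugar transporter family, with 9 of 14 reads, or 64.3% (35.1 to 87.2). Its tolerated changes in this group were P145S (Cct to Tct, chr13:58578541, score 0.08) in the nucleoside transporter Slc28a3 with 17 of 46 and T193N (aCc to aAc, chr3:101897130, score 0.2) in Slc22a15, of the organic cation transporter family, with 18 of 44. The facilitative glucose transporter Slc2a10 had F457I (Ttt to Att, chr2:165516325, tolerated with 0.14) in UV YUMM 1.1-9 with 5 of 35 reads. In the same line the dicarboxylate transporter Slc13a3 at codon 325 (gtG to gtA, 3 of 32 reads) and the choline transporter-like gene Slc44a5 at codon 625 (ctC to ctT, 5 of 47) had synonymous changes.

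The melanoma lines YUMM 1.1 and YUMM 1.3 had missense changes alone among their 6 transporter variants. In YUMM 1.1, N630T (aAc to aCc, chr3:121460054, score 0.04) in the choline transporter-like gene Slc44a3 was called deleterious, with 38 of 116 reads, or 32.8% (24.3 to 42.1). The other 3 were tolerated, among them S657R (Agt to Cgt, chr6:142086429, score 0.13) in Slco1a6, of the organic anion transporter family, with 19 of 116 reads, and V319A (gTc to gCc, chr4:134352071, score 1) in Slc30a2, a zinc transporter, with 5 of 28. YUMM 1.3 had K567M (aAg to aTg, chr5:33159111, score 0.03, deleterious) in Slc5a1, the sodium-coupled glucose transporter of the intestine, with 39 of 80 reads, or 48.8% (37.4 to 60.2). Its other variant was A7G (gCc to gGc, chr2:102735946, tolerated at low confidence with 0.21) in Slc1a2, the main astrocyte glutamate transporter, a change also annotated as lying in a splice region, with 8 of 37 reads, or 21.6% (9.83 to 38.2).

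Within the genes of the rule, predicted effects differed between channels and transporters in count. SIFT called 14 of 15 classed missense changes in channel genes deleterious, or 93.3% (exact interval 68.1 to 99.8), and 7 of 16 in transporter genes, or 43.8% (19.8 to 70.1). Over all variants outside the rule the share was 596 of 1157, or 51.5% (48.6 to 54.4). By line, channels and transporters had 8 of 8 and 1 of 3 deleterious in UV YUMM 1.1-9, 5 of 6 and 4 of 7 in MB49, and 1 of 1 and 1 of 4 in YUMM 1.1. The split into channels and transporters was set beside SIFT after the values were seen, so these shares are a description without a test. For all genes of the rule together, 21 of 31 classed changes were deleterious, or 67.7% (48.6 to 83.3), and the shares by line were 9 of 11 in UV YUMM 1.1-9 (whole list 56.8%), 9 of 13 in MB49 (55.1%), 2 of 5 in YUMM 1.1 (43.2%) and 1 of 2 in YUMM 1.3 (44.2%). Each of these whole-list shares lay within the exact interval of the smaller group. Protein-changing variants made up 35 of the 51, or 68.6%, close to the 71.5% of all listed variants.

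**Figure D1:**
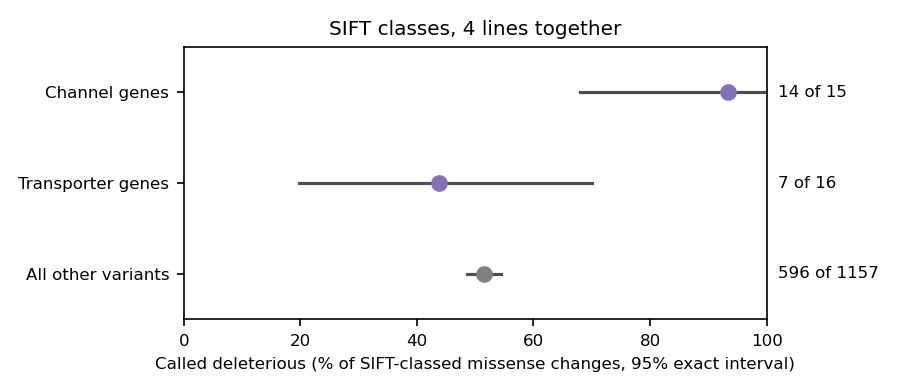
Share of SIFT-classed missense changes called deleterious (horizontal axis, percent) in channel genes, in transporter genes and in all other variants, over the 4 lines; points are shares, bars are exact 95% intervals, and the counts stand at the right. The channel genes of the rule sit at 93.3% and its transporter genes at 43.8%, next to 51.5% for all other variants.

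Allele fractions were next summarised by line. The median over these variants was 17.9% in YUMM 1.1 (11.1 to 43.5), 13.6% in UV YUMM 1.1-9 (5.19 to 26.1) and 51.4% in MB49 (27.4 to 68.4), beside medians of 24.9%, 13.5% and 45.7% over the whole lists; the 2 values of YUMM 1.3 are given above. The ranges of these genes in MB49 and UV YUMM 1.1-9 did not overlap, whereas those of the whole lists did, at 10.1 to 73.7% in MB49 and 3.62 to 41.2% in UV YUMM 1.1-9. Reads at each site were tested against 50%, the share of a heterozygous change in a diploid genome, by a two-sided exact binomial test adjusted over all 2013 sites. In UV YUMM 1.1-9, 22 of 23 sites were lower than 50%, where 96% of its whole list was; the exception was Grik5 (exact binomial test, adjusted p = 0.0514). In YUMM 1.1, 6 of 7 were lower (whole list 78%), all but Cacna2d4, and in YUMM 1.3 1 of 2 (whole list 74.7%), which was Slc1a2. In MB49, 2 of 19 were lower, Kcna1 (adjusted p = 0.0214 by the same exact test) and Kcnv2 (adjusted p = 0.000931), where 25.7% of the whole list was. With adjustment within the MB49 list alone, the Kcna1 call was lost and 1 of 19, Kcnv2, was lower. No MB49 site of these genes was called higher than 50%, where 4.38% of the whole list was. The stop in Slc46a2 at 68.4%, with 19 reads, did not pass (exact test, adjusted p = 0.221). Read depth sets what this test can show: it ranged from 14 to 99 reads at the MB49 sites, with 4 of 19 under 20 reads, from 22 to 96 in UV YUMM 1.1-9 and from 28 to 116 in YUMM 1.1. The copy number of these genes in the lines was not measured.

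**Figure D2:**
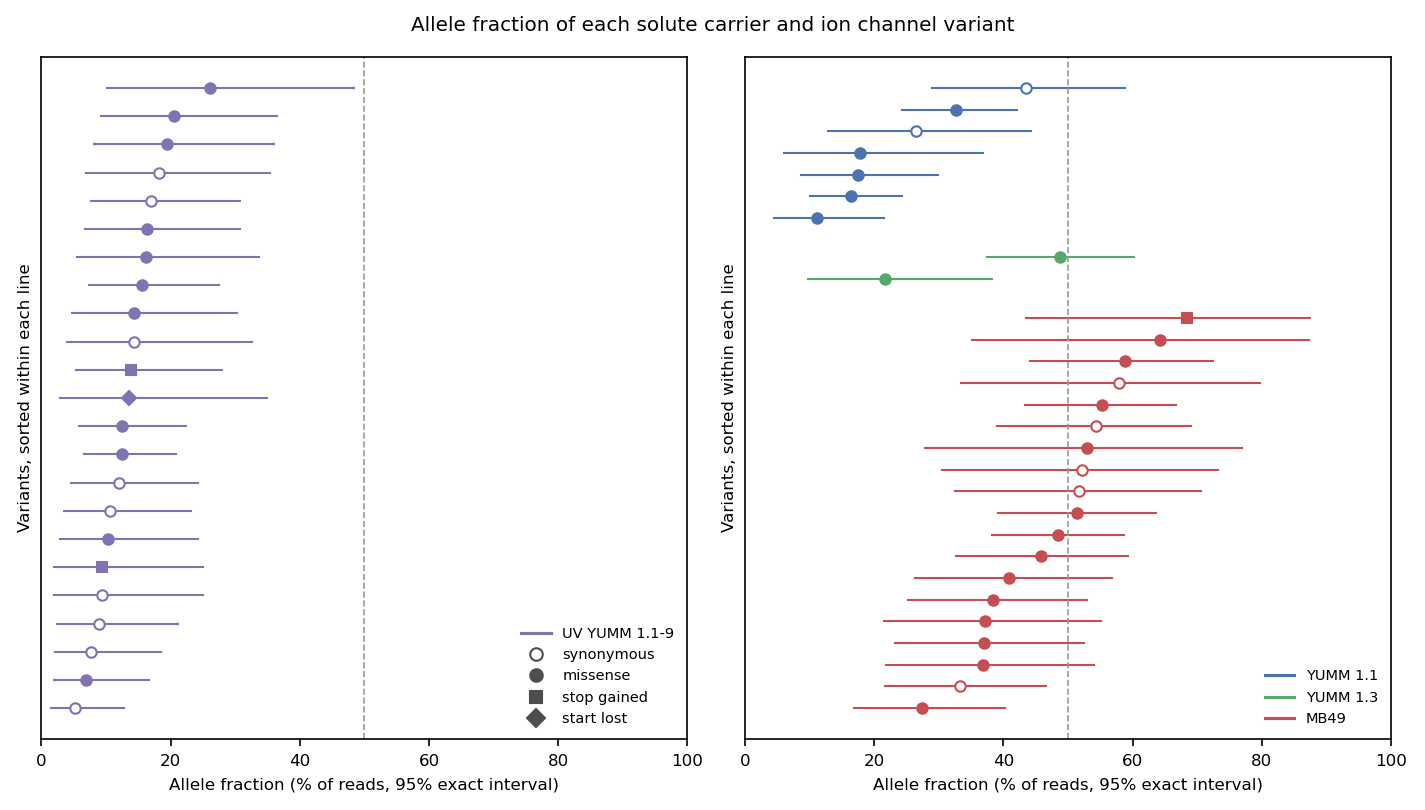
Allele fraction of each of the 51 variants (horizontal axis, percent of reads), 1 row a variant, UV YUMM 1.1-9 on the left and the other 3 lines on the right, sorted within each line; bars are exact 95% intervals, open circles synonymous, filled circles missense, squares stop and the diamond start changes. These variants span 5.19 to 26.1% in UV YUMM 1.1-9 and 27.4 to 68.4% in MB49, while the whole lists, not drawn, overlap (up to 41.2% and from 10.1%); the dashed line marks 50%.

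At the 23 UV YUMM 1.1-9 sites the list also gives the reads of YUMM 1.1. YUMM 1.1 had 0 alternative reads of 1112 over these sites, where 68 of 653 sites of the whole list had an alternative read. Per site the YUMM 1.1 depth was 21 to 121 reads. A count of 0 was taken to allow up to 3 reads, an approximate limit and not the exact interval used elsewhere. This limits the share to 14.3% at the shallowest site, that of Slc4a5, with a median limit of 7.14%. Set site by site against YUMM 1.1, 12 of the 23 sites differed in their reads (Fisher's exact test, adjusted over the list), where 64% of the whole list did; the sites were listed for this contrast, so the count only describes how many reads stand behind each. The lowest adjusted p was that of Trpm7 F1686S, at 0.000489 (exact test). The 11 that did not pass included the start codon change in Slc4a5 (adjusted p = 0.246 by the same exact test) and Clcn1 F249Y (0.0710), while the stop in Slco6d1 passed (0.0231). Of the 23 variants, 9 had fewer than 5 alternative reads.

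**Figure D3:**
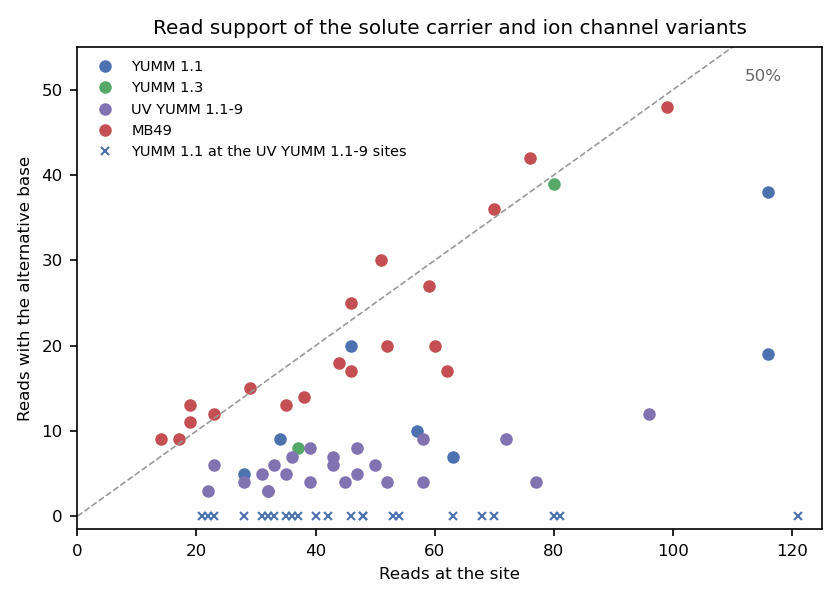
Reads with the alternative base (vertical axis) against all reads at the site (horizontal axis) for the 51 variants, coloured by line; crosses are the reads of YUMM 1.1 at the 23 UV YUMM 1.1-9 sites, all at 0 alternative reads, and the dashed line marks 50%. The UV YUMM 1.1-9 points lie between 3 and 12 alternative reads, below the MB49 points of the same depth.

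Kinds of base change, named by the pyrimidine of their pair, were counted beside their share of the whole list. C>T made up 10 of 23 variants in UV YUMM 1.1-9, or 43.5% (23.2 to 65.5), beside 43.3% of its whole list. T>A made up 7, or 30.4% (13.2 to 52.9), beside 17.5%, and T>C 4, or 17.4%, beside 16.2%. In MB49, T>A made up 6 of 19, or 31.6% (12.6 to 56.6), beside 24.5% of the whole list. C>T made up 5, or 26.3% (9.15 to 51.2), beside 32.4%, and it led T>A in the whole list. YUMM 1.1 had 2 each of C>T, T>C and T>G (whole list 21.7%, 20.1% and 10.7%) and 1 C>A (13.6%). C>G, which made up 22.9% of its whole list, was at 0 of 7 (exact upper bound 41.0%). The base before the changed pyrimidine could be read where it lay in the same codon. In UV YUMM 1.1-9 it was a pyrimidine in 15 of 15 changes, or 100% (78.2 to 100), beside 74.5% of the whole list. For C>T it was T in 8 of 8 (63.1 to 100; whole list 61.5%): in Cacna1b, Cacna2d3, Kcna6, Kcnf1, Scn4a, Scn11a, Slc44a5 and Trpm8. In MB49 a pyrimidine came before the changed base in 8 of 15 (53.3%, 26.6 to 78.7; whole list 54.6%), and in YUMM 1.1 in 2 of 6 (whole list 41.8%). The base before the change was not a planned measure and was not recomputed at the common floor. Its counts are a description without a test.

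Phenylalanine codons, which are ttt and ttc, were changed often in these genes in UV YUMM 1.1-9. They held 9 of the 23 changes, or 39.1% (19.7 to 61.5), beside 52 of 630 in the other genes of that list, or 8.25% (6.23 to 10.7). None of the 7, 2 and 19 variants of YUMM 1.1, YUMM 1.3 and MB49 lay in such a codon. The whole lists had 2.34%, 5.33% and 3.96%, which the exact upper bounds of these counts (41.0%, 84.2% and 17.6%) take in. Channels and transporters both had them, with 6 of 15 and 3 of 8. At the common floor 5 of 14 remained, or 35.7%. This residue was singled out after the values were seen, so the shares are a description without a test. In Clcn1, Slc4a1, Trpm7, Kcna6, Kcnf1 and Trpm8 the base before the changed one is a T of the phenylalanine codon itself. The same changes stand in the pyrimidine count above, so both patterns share these variants. The codons of 8 of the 9 are shown because they carry this pattern, with the changed base in capitals and the coding strand read 5′ to 3′; the last 3 leave the residue as it was.
Clcn1: tTt to tAt
Kcns2: Ttc to Ctc
Slc2a10: Ttt to Att
Slc4a1: tTc to tAc
Trpm7: tTt to tCt
Kcna6: ttC to ttT
Kcnf1: ttC to ttT
Trpm8: ttC to ttT

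In MB49 the missense changes of these genes often involved lysine: 6 of 13, or 46.2% (19.2 to 74.9), gained or lost one, beside 13.4% of all missense changes of that list. Lysine was gained in Slc17a2 M24K and Cacna1s R171K, among others, and lost in Kcnv2 K388T, Slc35d3 K124Q and Slc17a1 K397E. The 6 changes lie in 6 genes, and 5 of the 6, all but Slc17a1 K397E, were called deleterious. In UV YUMM 1.1-9 it was 1 of 11, Cacna2d3 E652K, beside 17.3% of all missense changes of that list. In YUMM 1.3 it was 1 of 2, Slc5a1 K567M (whole list 9.15%), and in YUMM 1.1 0 of 5 (whole list 10.9%). For these lines the whole-list share lay within the exact interval of the small count. The related transport genes of MB49, described below, had 0 of 14 (exact upper bound 23.2%). Lysine, too, was singled out after the values were seen.

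**Figure D4:**
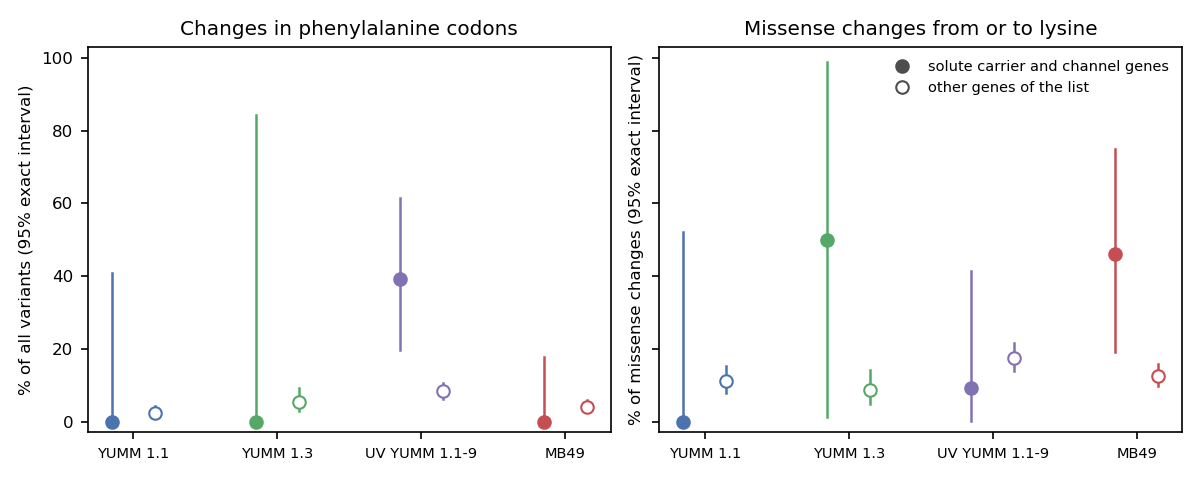
Share of variants in phenylalanine codons (left) and share of missense changes from or to lysine (right), in percent, per line; filled circles are the solute carrier and channel genes, open circles the other genes of the same list, and bars exact 95% intervals. Phenylalanine codons stand at 39.1% in UV YUMM 1.1-9 beside 8.25% in its other genes, and lysine at 46.2% in MB49; the bars of YUMM 1.1 and YUMM 1.3 are wide because few variants lie behind them.

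In all, 4 genes were listed in more than 1 line, each at different sites: Cacna1b and Trpm7 in UV YUMM 1.1-9 and in YUMM 1.1, and Slc26a8 and Slco6d1 in UV YUMM 1.1-9 and MB49. This was 4 of 47 genes, or 8.51%, beside 130 of all 1555 listed genes, or 8.36%. The sites lay 29537 bases apart in Cacna1b (chr2:24603860-24763200), 7205 in Slc26a8 (chr17:28637779-28691273) and 45529 in Slco6d1 (chr1:98421087-98516985). All 51 sites fell inside the RefSeq span of the gene they were assigned to. The genes with a variant had long genomic spans: their median was 58.5 kb, beside 32.9 kb for all genes of the rule, as listed protein-coding genes in general had 30.0 kb beside 17.1 kb for all. These spans include introns, while the lists hold coding variants, and coding length was not measured.

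Other pumps, ABC transporters and channels that the symbol rule leaves out were counted beside these genes. They had 5 variants in YUMM 1.1, 1 in YUMM 1.3, 12 in UV YUMM 1.1-9, or 1.84% of its list (0.953 to 3.19), and 18 in MB49, or 2.55% (1.52 to 3.99), in 32 genes in all. SIFT called 1 of 7 classed missense changes of UV YUMM 1.1-9 deleterious and 10 of 12 in MB49. Among the channel genes of this group, the classed changes in Chrna4, Glra3, Ano10, Catsperb and Gabrr3 were tolerated. Those in Chrnb2, Ano3, Gabra2, Cnga4 and Pkdrej were deleterious. The lines differed in this. In MB49 Ano3, Gabra2, Cnga4 and Pkdrej were deleterious and Gabrr3 tolerated, beside 5 of 6 deleterious for the rule's channels there. Chrna4, Glra3, Ano10 and the deleterious Chrnb2 were in YUMM 1.1, where the rule had 1 classed channel change. Catsperb was the only classed channel change of this group in UV YUMM 1.1-9. The only stop was Q414* in Atp10b, a lipid flippase, in UV YUMM 1.1-9 with 4 of 54 reads. None of these 12 UV YUMM 1.1-9 variants lay in a phenylalanine codon (exact upper bound 26.5%, whole list 9.34%).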

How the data were processed

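The labels' protocols give capture with an Agilent SureSelect mouse exome kit and paired-end sequencing (read length 151 bases, mean depth given as 80X). FastQC, BWA 0.7.5a, GATK, Picard, SAMtools and the build mm10 are listed, without role or order, per the submitters' processing notes; the variant caller and its filters are not stated there. The authors deposited, per the file headers, whole-number read counts of the reference and alternative base per site, not normalized, with consequence, codon, residue and SIFT class. Positions are mm10, which is GRCm38; gene spans are from RefSeq (GRCm38.p6), where all 47 symbols matched.

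From these, allele fractions, exact 95% intervals and exact tests (threshold 0.05, Benjamini-Hochberg over sites) were computed with Python 3.11.15 and SciPy 1.17.1. Tests were checked on simulated data. For Fisher's test the unchanged simulated sites had no alternative reads in either library, so false calls could not arise there. Intervals and tests cover counting error only, and compare libraries. The labels name no molecular identifiers. As repeats, 6 rows were dropped. Allele columns exchanged between paired rows (32 rows, UV YUMM 1.1-9) touched 0 variants described here.

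Genes, lists and tests were chosen with earlier results of these data known. Some variants are counted but not reported singly here; of the others, by rule, those given in full, with their interval, are truncating, start or splice changes, deleterious changes of highest allele fraction (up to 6 a list), genes in several lists, and extremes. Roles are background. Related transport genes were taken by symbol prefix: ABC transporters, P-type and V-type pumps, and other channel, receptor-channel and aquaporin families. The prefixes Itpr and Tmc had to be followed by a digit, set after Itpripl2 and Tmcc1 were seen to match by letters alone.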

Additional observations from a re-analysis of the deposited data

How the results depend on the processing

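No paired analysis was possible because each line has 1 library. Of 87 recomputed values, 75 kept within their interval, spread or 1.5 times their count, but many of the 75 could not have moved. No value changed with variants in no other list, with 1 variant per gene or without rows of exchanged columns. These settings left the variants described here as they were, so for counts, shares and medians they are no check. All variants of the single-line lists reach the floor of 5 alternative reads and 10%, so it could remove variants only from UV YUMM 1.1-9. There it left 14 of 23. An allele fraction of at least 20% left 2 variants in UV YUMM 1.1-9, both protein-changing and deleterious (2, 100%), with no C>T (0%) and a median of 23.3%. In YUMM 1.1 it left 3 variants, 1 of them protein-changing and deleterious (100%), with a median of 32.8%. Without low-confidence classes the deleterious share of YUMM 1.3 was 100%, on 1 change. Adjusting within the MB49 list left 1 site, Kcnv2, lower than 50%. Adjusting within the UV YUMM 1.1-9 list, or testing sites with at least 20 reads, made it 23 of 23 lower than 50%, Grik5 included; with at least 20 reads in both lines, 13 sites differed from YUMM 1.1 in place of 12. The floor was added after the values were seen for 4 shares: channels 92.9% deleterious, transporters 46.7%, phenylalanine codons 35.7% and MB49 lysine changes 46.2%. Sites under 20 reads, 4 of 19 in MB49, allow only wide intervals.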
